A study of Mus musculus with 6 samples.

Results

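The matrix metalloproteinases described here are Mmp2, Mmp3, Mmp9, Mmp10, Mmp12, Mmp13 and Mmp14, and the tissue inhibitors of metalloproteinases are Timp1, Timp2 and Timp3. These 10 genes, 7 proteases and 3 inhibitors, were chosen as genes of stromal cells and macrophages by their symbols in GENCODE mouse release 21, and all 10 were among the 55401 gene IDs of the deposited tables. RNA was sequenced in bulk from colonic lamina propria cells of male Apc Min/+ mice aged 5 to 6 weeks, in 3 libraries from mice gavaged with atorvastatin at 20 mg/kg on alternate days and 3 from mice gavaged with the vehicle, 2% Tween 80. The labels do not state whether atorvastatin was also given in 2% Tween 80. If it was not, the drug and Tween 80 cannot be told apart here. All of these mice carried the Min allele, a truncating mutation of a single copy of Apc, so the data hold no Apc wild-type group. Whether each library came from its own animals is not stated in the labels. P-values therefore measure only how far these libraries spread, and that spread may be technical.

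Matrix metalloproteinases are zinc enzymes that cut collagens, elastin, proteoglycans and many signalling proteins outside the cell. Most are secreted as inactive proenzymes and become active once their propeptide is removed, often by another protease of the family. Timp proteins bind the active site and block it. In the gut wall fibroblasts make most of the collagenase and stromelysin, and macrophages and neutrophils add elastase and gelatinase.

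Values were FPKM, a fragment number scaled for gene length and library size, as the authors deposited them. The FPKM scale divides by gene length, so levels are set side by side between genes here. The gene lengths that were used are not known, so such comparisons are approximate. Summed FPKM lay between 355787 and 456064 per library, and the fragments behind them could not be recovered from values with 2 decimals. A gene was tested if it reached 1 FPKM in at least 3 libraries, which 13590 genes did. Every marker looked for of fibroblasts, smooth muscle, macrophages, endothelium, B cells, T cells and plasma cells was above 0 in at least 1 library. So was every marker of neutrophils and colonic epithelium, so this does not tell which cell types were present in number. The epithelial marker Epcam averaged 11.6 FPKM, above the T cell marker Cd3e at 4.7 FPKM. Vehicle library 3 stood furthest from the others, with a mean Pearson's r across genes of 0.944 to the other 5 libraries, against 0.957 to 0.961 for those. Immunoglobulin genes took 47.9% of the summed FPKM in atorvastatin library 2 and between 27.9% and 38.4% in the other 5.

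The inhibitors Timp2 and Timp3 and the gelatinase Mmp2 were the most abundant of the 10 genes. Averaged over the 6 libraries, Timp2 had 136 FPKM, Mmp2 89.6, Timp3 89.0, Mmp14 26.7, Timp1 26.5, Mmp13 13.9, Mmp3 12.2, Mmp10 7.02, Mmp12 1.22 and Mmp9 0.657 FPKM. The ranges over libraries overlapped between Mmp2 and Timp3, between Mmp14 and Timp1, and between Mmp13 and Mmp3, and neither gene of these pairs was the higher one in all 6 libraries. Timp2 lay above Mmp2, Timp3 above Mmp14, Timp1 above Mmp13 and Mmp10 above Mmp12 with no overlap. Mmp3 lay above Mmp10, and Mmp12 above Mmp9, in 6 of 6 libraries although their ranges overlapped. Mmp2 and Mmp14 together made up 76.9% of the summed protease FPKM, and Timp2 and Timp3 made up 89.5% of the summed inhibitor FPKM.

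**Figure D1:**
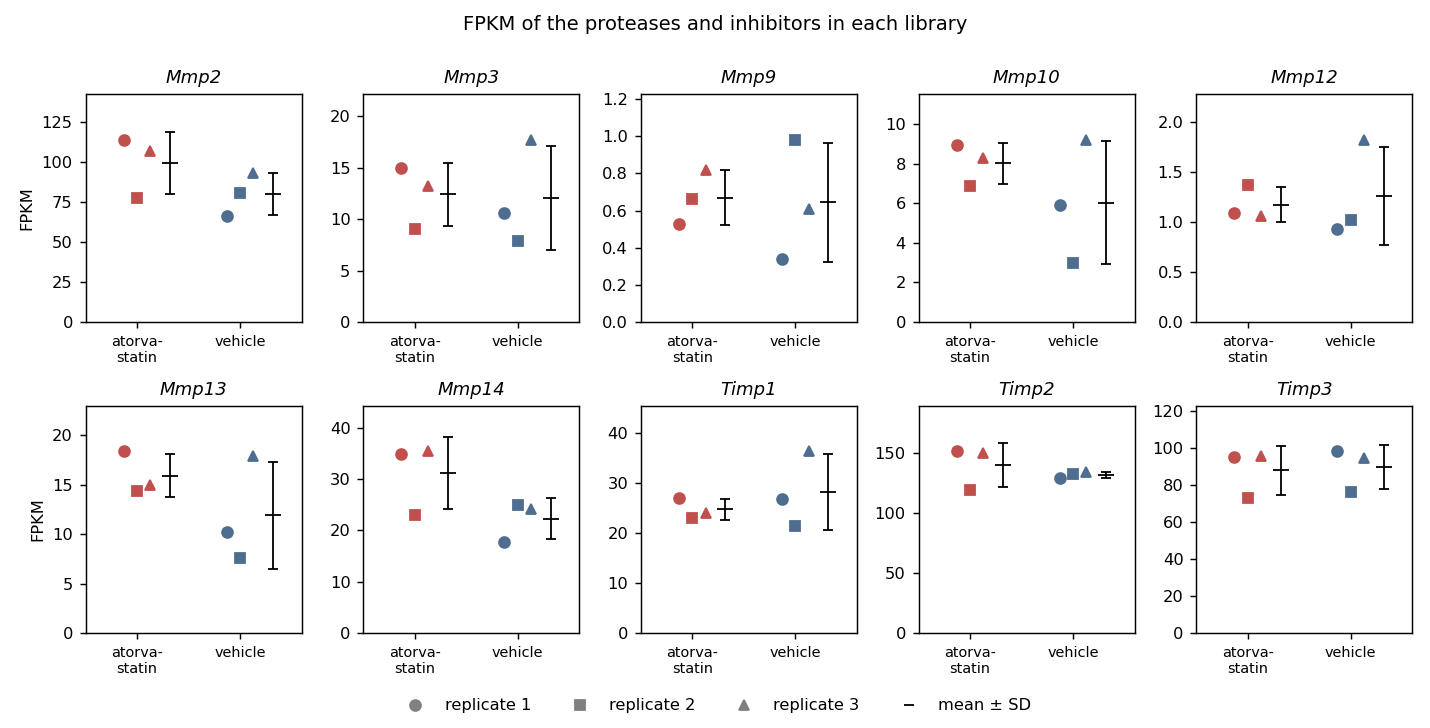
FPKM of each of the 10 genes (vertical axes, linear and starting at 0) in the 3 atorvastatin libraries (red, left) and the 3 vehicle libraries (blue, right); marker shapes give the replicate number, and the bars give mean ± SD (n = 3). The groups overlapped in every gene, and for Mmp3, Mmp9, Mmp10, Mmp12, Mmp13 and Timp1 the vehicle libraries spanned a wider range than the atorvastatin libraries.

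The comparison of atorvastatin with vehicle asked whether statin treatment goes with a change in the matrix proteases or their inhibitors. None of the 10 genes passed the test. With limma on log2(FPKM + 1), 0 of the 9 genes that could be tested passed a false discovery rate of 0.05 over all genes, and 0 had an unadjusted p under 0.05, where the share of all 13590 tested genes was 0% and 7.17%. That count of 0 became 1 gene, Mmp14, with equal sums without immunoglobulin and mitochondrial genes, beside 1076 of all 13608 genes tested there. It became 2 genes, Mmp2 and Mmp14, without atorvastatin library 2, beside 992 of 13373 genes. Without vehicle library 3 it was 2 genes, Mmp10 and Mmp13, beside 1125 of 13368 genes. None was called after adjustment. Fits without the mean-variance trend or with robust variance also called 0 genes. The 2 groups overlapped in all 10 genes, whereas they did not overlap in 14.4% of all genes tested, with atorvastatin above in 5.53% and below in 8.85%. The median difference over the 9 tested genes was 0.08 on the log2 scale, beside -0.02 over all genes tested. The 95% interval stayed inside 1 log2 unit either side of 0 for 7 of the 9 genes, beside 89.8% of all genes tested, and for Mmp10 and Mmp13 it reached further. In bulk RNA fewer cells of a type and less RNA per cell cannot be told apart, and this holds for each difference given here.

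**Figure D2:**
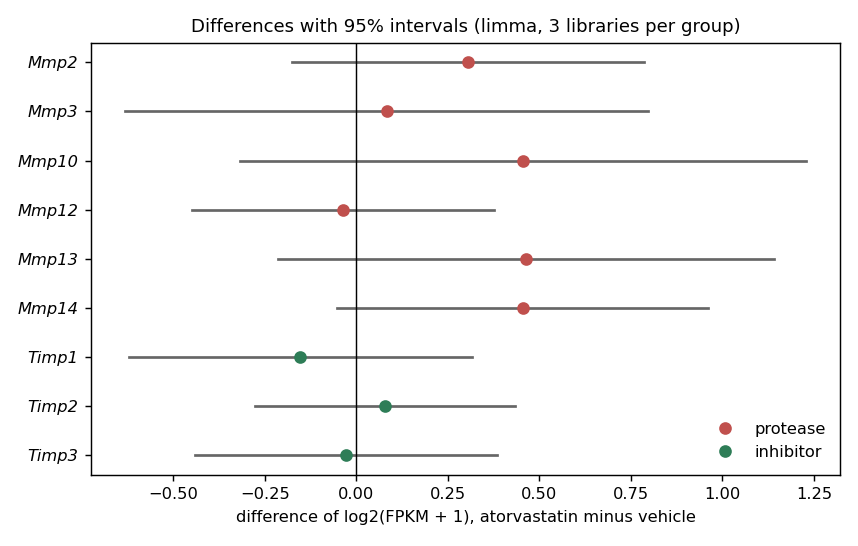
Difference of log2(FPKM + 1), atorvastatin minus vehicle, for the 9 tested genes (points; red proteases, green inhibitors) with 95% intervals from limma (lines; 3 libraries per group). Every interval includes 0, from Mmp12 at -0.04 to Mmp13 at 0.46 among the proteases, and the intervals of Mmp10 and Mmp13 are the widest towards higher values.

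Mmp14 and Mmp2 form an activation pair. Mmp14 encodes a membrane-bound collagenase that cleaves the proenzyme of Mmp2, and Mmp2 encodes gelatinase A, which digests denatured collagen and basement membrane collagen. Mmp14 (ENSMUSG00000000957, mm10 chromosome 14, 54431612 to 54441265, + strand) had 34.91, 23.02 and 35.43 FPKM in the atorvastatin libraries and 17.72, 24.99 and 24.08 FPKM in the vehicle libraries. Atorvastatin libraries 1 and 3 lay above all 3 vehicle libraries, and atorvastatin library 2 lay between them. The means were 31.1 ± 7.02 FPKM with atorvastatin and 22.3 ± 3.96 FPKM with vehicle (SD, n = 3 each). The log2 difference was 0.45 (SE 0.21, 95% interval -0.05 to 0.96), with an adjusted p of 0.696 in limma.

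Mmp2 (ENSMUSG00000031740, chromosome 8, 92827291 to 92853420, + strand) had 113.72, 77.52 and 106.74 FPKM in the atorvastatin libraries and 66.32, 80.32 and 92.94 FPKM in the vehicle libraries. As with Mmp14, atorvastatin libraries 1 and 3 were the highest of the 6, and vehicle library 1 was the lowest. The means were 99.3 ± 19.2 FPKM with atorvastatin and 79.9 ± 13.3 FPKM with vehicle (SD, n = 3 each), which is 0.31 on the log2 scale (SE 0.20, 95% interval -0.18 to 0.79; limma adjusted p = 0.736). That difference was 0.18 without vehicle library 1 and 0.47 without atorvastatin library 2. By root mean square distance of log2 deviations over the 6 libraries, the 2 genes closest to Mmp2 were Pparg (0.0523) and Smad6 (0.0554). The median over other genes was 0.318. These 2 were picked as the smallest of all distances, so small values were bound to occur, and a link was not tested.

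The fibrillar collagens, which fibroblasts make, are the substrates most tied to this pair. Col1a1 had 141.95, 77.49 and 138.22 FPKM in the atorvastatin libraries and 72.59, 115.04 and 111.24 FPKM in the vehicle libraries, and Col3a1 had 175.65, 116.67 and 171.95 against 109.21, 161.81 and 157.64 FPKM. Both collagens were low in atorvastatin library 2 and in vehicle library 1, as Mmp14 and Mmp2 were. The fibroblast markers Pdgfra and Dpt also had their lowest vehicle value in library 1. Dcn, Lum and Pdpn had theirs in library 2, and Thy1 had its lowest in library 3. The 8 fibroblast markers, all 8 tested and none called, summed to between 1027 and 1325 FPKM with atorvastatin and between 1067 and 1404 FPKM with vehicle. Their part in the values of Mmp2 and Mmp14 was not tested.

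The secreted stromelysins and collagenase lie together in the genome. Mmp3 encodes stromelysin-1, which cuts proteoglycans and activates other proenzymes of the family, Mmp10 encodes the closely related stromelysin-2, and Mmp13 encodes collagenase-3, the main interstitial collagenase of the mouse. Mmp13 (ENSMUSG00000050578, 7272514 to 7283331), Mmp12 (ENSMUSG00000049723, 7344381 to 7369499), Mmp3 (ENSMUSG00000043613, 7445822 to 7455975) and Mmp10 (ENSMUSG00000047562, 7502352 to 7510240) follow each other on the + strand of chromosome 9 within 237.7 kb. Mmp1b and Mmp1a, which start within the same stretch, were listed at 0 FPKM in all 6 libraries. Beyond Mmp10, the next genes Mmp8, Mmp27, Mmp20 and Mmp7 did not exceed 0.27 FPKM in any library. Mmp1b overlaps the end of Mmp12 on the opposite strand.

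**Figure D3:**
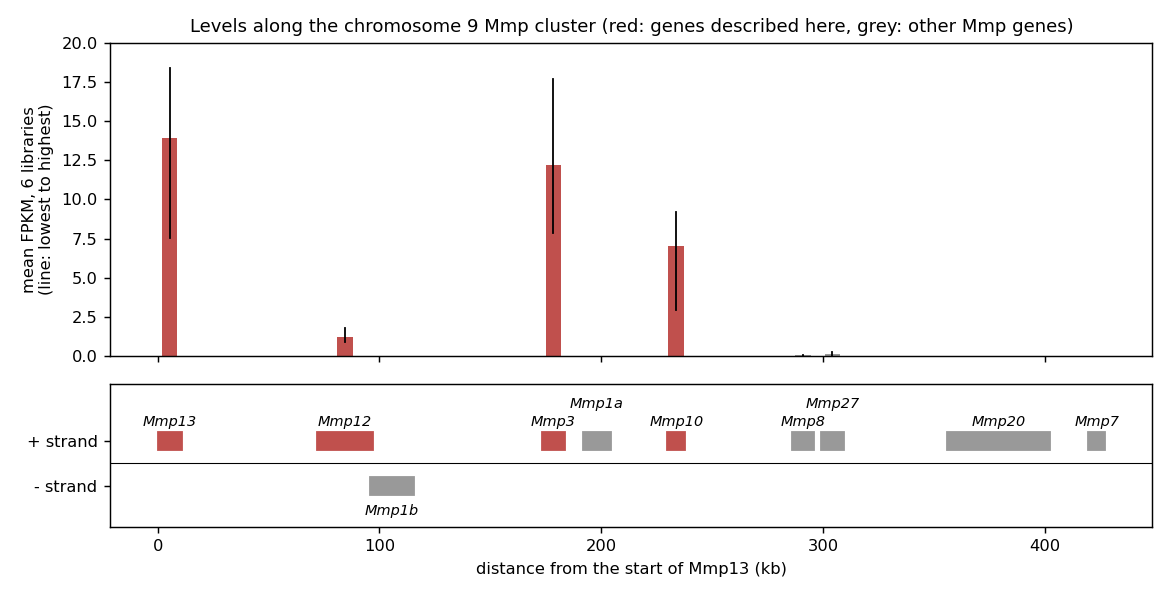
Upper panel: mean FPKM over the 6 libraries of each Mmp gene of the chromosome 9 cluster (bars from 0), with lines from the lowest to the highest library. Lower panel: gene spans by strand against distance from the start of Mmp13 in kb. Mmp13, Mmp3 and Mmp10 carry most of the signal, Mmp12 averaged 1.22 FPKM, and the genes shown in grey lie near 0.

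The upstream sequences of Mmp13, Mmp3 and Mmp10 are shown because these genes varied together between libraries, and that of Timp1 because it varied with them. Each is the 150 bases before the gene start that RefSeq gives on build GRCm38.p6, + strand, 5′ to 3′: chr9:7272364-7272513 for Mmp13, chr9:7445672-7445821 for Mmp3, chr9:7502192-7502341 for Mmp10 and chrX:20870016-20870165 for Timp1. Capitals mark the motif TGANTCA, the sequence bound by AP-1 (dimers of Fos and Jun proteins), and the motif TATAAA, the TATA box.
Mmp13: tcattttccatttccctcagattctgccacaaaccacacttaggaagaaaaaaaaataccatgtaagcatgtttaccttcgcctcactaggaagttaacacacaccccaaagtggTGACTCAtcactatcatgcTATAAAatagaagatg
Mmp3: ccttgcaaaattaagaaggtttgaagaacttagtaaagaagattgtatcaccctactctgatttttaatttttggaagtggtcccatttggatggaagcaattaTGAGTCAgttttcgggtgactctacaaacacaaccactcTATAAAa
Mmp10: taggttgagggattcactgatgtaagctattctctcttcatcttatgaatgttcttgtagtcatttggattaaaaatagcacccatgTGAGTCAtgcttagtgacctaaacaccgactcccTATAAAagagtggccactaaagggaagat
Timp1: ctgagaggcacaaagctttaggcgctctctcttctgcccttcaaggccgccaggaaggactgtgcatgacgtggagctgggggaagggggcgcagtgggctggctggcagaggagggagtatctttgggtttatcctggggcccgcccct
TGANTCA, which reads the same on both strands, began 35 bases before the start in Mmp13, 46 bases in Mmp3 and 63 bases in Mmp10, with TATAAA between it and the start in all 3, at 16, 7 and 29 bases. The motifs do not overlap. The genes to print were picked after their values were seen, and any link between motifs and shared variation was not tested. In windows of 300 bases, 250 before and 50 after the start, 7.81% of 32851 mouse promoters hold TGANTCA, 13.6% hold TATAAA on either strand and 1.54% hold both. Of the 2 RefSeq starts of Mmp12, one has both motifs in its window and the other has neither. The windows of Mmp14, Timp1, Timp2 and Timp3 have neither motif, which says only that these letters are not there. G and C made up 37.7% to 43.7% of the windows of the chromosome 9 genes, 56.0% in Mmp14, 55.0% in Timp1, 68.7% in Timp2 and 67.0% in Timp3, where the median of all promoters was 52.7%.

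Mmp3 had 14.92, 9.05 and 13.22 FPKM in the atorvastatin libraries and 10.57, 7.85 and 17.69 FPKM in the vehicle libraries. The highest and the lowest of the 6 values were both vehicle libraries, and the atorvastatin values lay inside the vehicle range. Its means were 12.4 ± 3.02 FPKM with atorvastatin and 12.0 ± 5.08 FPKM with vehicle (SD, n = 3 each), and the log2 difference was 0.08 (SE 0.30, 95% interval -0.63 to 0.80; limma adjusted p = 0.952).

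Mmp10 had 8.92, 6.87 and 8.26 FPKM in the atorvastatin libraries and 5.91, 2.97 and 9.20 FPKM in the vehicle libraries. Vehicle libraries 1 and 2 lay below every atorvastatin library, and vehicle library 3 lay above them. The log2 difference was 0.46 (SE 0.32, 95% interval -0.32 to 1.23; limma adjusted p = 0.749), with means of 8.02 ± 1.05 FPKM with atorvastatin and 6.03 ± 3.12 FPKM with vehicle (SD, n = 3 each). It was 0.10 without vehicle library 2 and 0.78 without vehicle library 3, so single vehicle libraries set its size.

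Mmp13 repeated this arrangement at a higher level. It had 18.41, 14.42 and 14.95 FPKM in the atorvastatin libraries and 10.23, 7.56 and 17.93 FPKM in the vehicle libraries, with means of 15.9 ± 2.17 FPKM with atorvastatin and 11.9 ± 5.38 FPKM with vehicle (SD, n = 3 each). Vehicle libraries 1 and 2 were below all atorvastatin libraries, while vehicle library 3 was within their range. The log2 difference of 0.46 (SE 0.28, 95% interval -0.21 to 1.14; limma adjusted p = 0.723) became 0.21 without vehicle library 2 and 0.78 without vehicle library 3.

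Timp1 is the inhibitor that is most readily induced by inflammatory signals in many tissues, and its protein blocks most secreted members of the family. It (ENSMUSG00000001131, chromosome X, 20870166 to 20874735, + strand) had 27.10, 23.05 and 24.11 FPKM in the atorvastatin libraries and 26.77, 21.47 and 36.40 FPKM in the vehicle libraries. Vehicle library 3 was the highest of the 6, and the other 5 lay close together. The means were 24.8 ± 2.10 FPKM with atorvastatin and 28.2 ± 7.57 FPKM with vehicle (SD, n = 3 each), and the log2 difference was -0.15 (SE 0.20, 95% interval -0.62 to 0.31; limma adjusted p = 0.859). Without vehicle library 3 it was 0.041, of the opposite sign. Timp1 lies inside the span of Syn1 on the opposite strand without overlap of exons, and Syn1 had at most 0.55 FPKM.

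Mmp3, Mmp10, Mmp13 and Timp1 ranked the libraries alike within each group. In all 4 genes atorvastatin library 1 was highest and library 2 lowest among the atorvastatin libraries, and vehicle library 3 was highest and library 2 lowest among the vehicle libraries. The same order in both groups was seen in 7.20% of the 13274 tested genes without ties, so it was common among genes in these libraries. It was shared by Plau and Plaur, the genes of the plasminogen activator urokinase and its receptor, by the stromal marker Pdpn and by the summed smooth muscle markers. Adamdec1, Junb, Lcn2 and Mmp27 also had this order, whereas the smooth muscle markers Myh11 and Des did not. Of the 8 fibroblast markers only Pdpn had this order, and the sum of those 8 did not have it. Pdpn had 135.07, 91.30 and 121.62 FPKM in the atorvastatin libraries and 97.25, 67.73 and 130.80 FPKM in the vehicle libraries. Plau had 96.94, 55.73 and 74.80 FPKM against 47.29, 34.99 and 78.53 FPKM. The genes named here for sharing the order, and the list, were picked after their values were seen. The 6 smooth muscle markers, all 6 tested and none called, summed to between 733 and 1027 FPKM with atorvastatin and between 574 and 1088 FPKM with vehicle, and their part in the pattern was not tested.

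**Figure D4:**
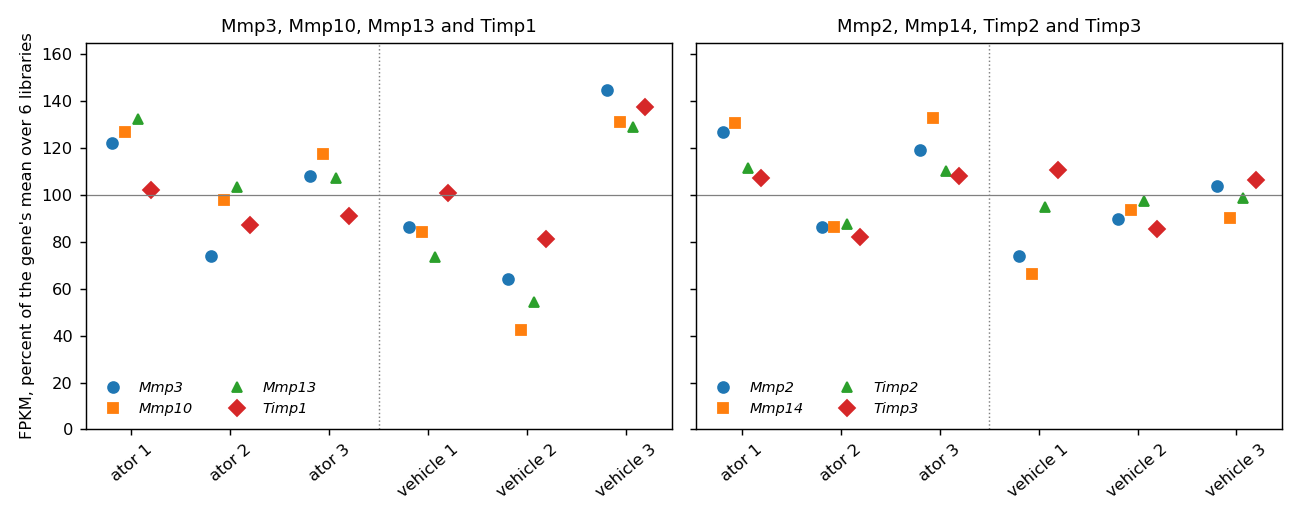
FPKM of 8 genes in each library, as a percent of the gene's own mean over the 6 libraries (vertical axes, linear; horizontal line at 100), for the 3 atorvastatin libraries (left of the dotted line) and the 3 vehicle libraries (right). In the left panel vehicle library 2 is the lowest vehicle library and vehicle library 3 the highest for all 4 genes; in the right panel Timp2 stays between 87.5% and 111% of its mean.

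Timp2 and Timp3 were the most abundant inhibitors. Timp2 encodes the inhibitor that also joins Mmp14 to the proenzyme of Mmp2 at the cell surface, a step in the activation of Mmp2. Timp2 (ENSMUSG00000017466, chromosome 11, 118301069 to 118355740, - strand) had 151.68, 119.01 and 149.87 FPKM in the atorvastatin libraries and 129.09, 132.53 and 134.04 FPKM in the vehicle libraries. The vehicle libraries lay close together, with 2 atorvastatin libraries above them and 1 below. The means were 140 ± 18.4 FPKM with atorvastatin and 132 ± 2.54 FPKM with vehicle (SD, n = 3 each), which is 0.08 on the log2 scale (SE 0.15, 95% interval -0.28 to 0.43; limma adjusted p = 0.906). Over the 6 libraries its SD on the log2 scale was 0.13, below the median of 0.20 over tested genes, while that of Timp3 was 0.19, close to the median. The difference of Timp2 was 0.018 without atorvastatin library 1, 0.027 without atorvastatin library 3 and 0.19 without atorvastatin library 2. Utp4 (0.0112) and Hook2 (0.0293), again picked as the smallest distances, had the library deviations closest to those of Timp2. The median distance was 0.205. Cep295nl lies within the span of Timp2 on the same strand without overlap of exons and had at most 1.01 FPKM.

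Timp3 encodes the inhibitor that is bound to the matrix and also blocks several ADAM proteases. It (ENSMUSG00000020044, chromosome 10, 86300372 to 86349506, + strand) had 95.29, 73.06 and 96.11 FPKM in the atorvastatin libraries and 98.58, 76.19 and 94.66 FPKM in the vehicle libraries. Replicate 2 was the lowest library of each group, and the remaining 4 values lay within a narrow range. The means were 88.2 ± 13.1 FPKM with atorvastatin and 89.8 ± 12.0 FPKM with vehicle (SD, n = 3 each), and the log2 difference was -0.03 (SE 0.17, 95% interval -0.44 to 0.38; limma adjusted p = 0.975). Ndn (0.0399) and Abhd11 (0.0399), again picked as the smallest distances, lay closest to it, where the median distance was 0.241. Timp3 shares some exonic bases with Syn3 on the opposite strand. Syn3 had at most 0.16 FPKM.

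Mmp12 and Mmp9 had the lowest levels of the 10 genes. Mmp12 encodes macrophage elastase and had 1.09, 1.37 and 1.06 FPKM in the atorvastatin libraries and 0.93, 1.02 and 1.82 FPKM in the vehicle libraries. The atorvastatin values fell inside the vehicle range, and the difference on the log2 scale was -0.04 (SE 0.17, 95% interval -0.45 to 0.38; limma adjusted p = 0.968), and at this level the log2(FPKM + 1) scale understates changes. Of the 8 macrophage markers 7 could be tested, all with positive differences (median 0.23 on the log2 scale), and 0 were called. The 8 markers summed to between 106 and 117 FPKM with atorvastatin and between 62.6 and 138 FPKM with vehicle. Vehicle library 3 was the highest of the 6 libraries and vehicle library 1 the lowest for both Mmp12 and the sum of these markers. Adgre1, C1qa, C1qb and C1qc each had the same highest and lowest library, whereas Cd68, Csf1r, Mrc1 and Cd163 were highest in an atorvastatin library. The part of the markers in the values of Mmp12 was not tested.

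Mmp9 encodes gelatinase B, which neutrophils store in granules and macrophages secrete. It (ENSMUSG00000017737, chromosome 2, 164940780 to 164955850, + strand) had 0.53, 0.66 and 0.82 FPKM in the atorvastatin libraries and 0.34, 0.98 and 0.61 FPKM in the vehicle libraries, below 1 FPKM in all 6 and therefore outside the test over all genes. The atorvastatin values lay inside the vehicle range, and the difference was 0.04 on the log2(FPKM + 1) scale with an exact two-sided permutation p of 0.9, where 3 against 3 libraries allow no p below 0.1. Neutrophil markers were also scarce. Of 8 markers 4 could be tested, all with negative differences, and 0 were called. The 2 with an unadjusted p under 0.05, beside 7.17% of all genes tested, were S100a8 (log2 difference -0.67) and S100a9 (-0.84). Both had a limma adjusted p of 0.692, and their groups did not overlap, as in 14.4% of all genes tested. S100a8 was low, with a mean of 0.965 FPKM over the 6 libraries. In the other tested markers, Retnlg (-0.12) and Csf3r (-0.08), the groups overlapped. The part of neutrophils in the values of Mmp9 was not tested. The sums of the 8 markers lay between 6.57 and 10.4 FPKM with atorvastatin and between 10.2 and 16.7 FPKM with vehicle, and Ly6g was listed at 0 in atorvastatin libraries 1 and 3.

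Summed over the 7 proteases, FPKM came to 193, 133 and 180 in the atorvastatin libraries and 112, 126 and 164 in the vehicle libraries. Atorvastatin libraries 1 and 3 lay above all vehicle libraries. The 3 inhibitors summed to 274, 215 and 270 FPKM with atorvastatin and to 254, 230 and 265 FPKM with vehicle, so the groups overlapped. The ratio of the sums was 0.702, 0.618 and 0.668 with atorvastatin and 0.440, 0.546 and 0.620 with vehicle, with means of 0.663 ± 0.0425 with atorvastatin and 0.535 ± 0.0902 with vehicle (SD, n = 3 each). Vehicle library 3 lay just above atorvastatin library 2, so the groups overlapped. The mean of log2(FPKM + 1), proteases minus inhibitors, was -2.61, -2.60 and -2.61 with atorvastatin and -3.08, -2.90 and -2.69 with vehicle. There the groups did not overlap, as in 14.4% of all genes tested. Each protease counts alike in this mean, including Mmp9 and Mmp12, which lie near 1 FPKM. No test was made of these sums, since the genes were chosen with earlier results of these data known. Mmp2 alone made up 58.3% to 59.1% of the protease sum with atorvastatin and 56.6% to 63.9% with vehicle.

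**Figure D5:**
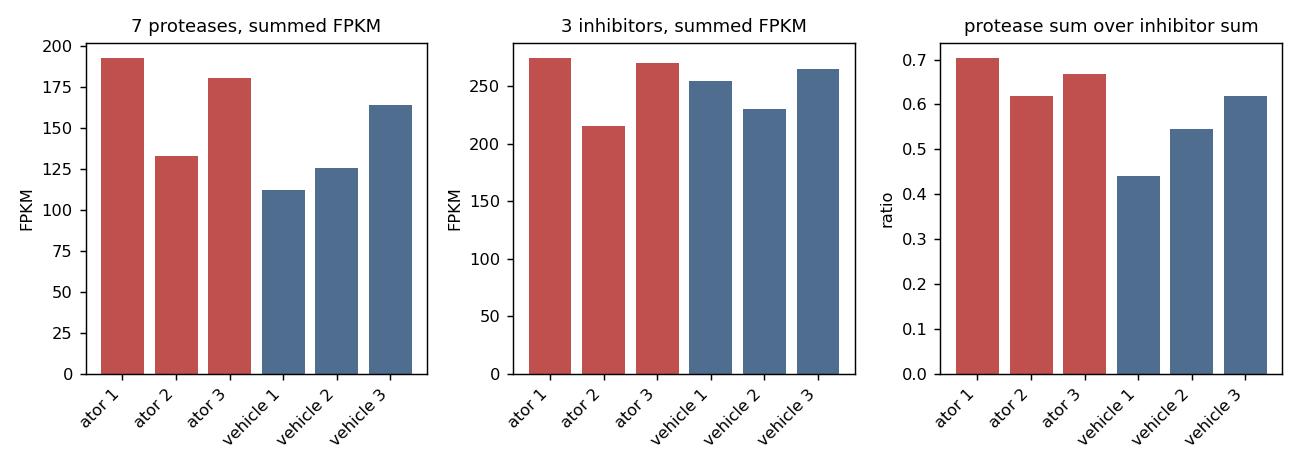
Summed FPKM of the 7 proteases (left), summed FPKM of the 3 inhibitors (middle) and their ratio (right) in the 3 atorvastatin libraries (red) and the 3 vehicle libraries (blue); bars start at 0 and stand for single libraries. The ratio is lowest in vehicle library 1, at 0.440, and highest in atorvastatin library 1, at 0.702, while atorvastatin library 2 and vehicle library 3 are almost level.

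Atorvastatin library 2 was the lowest of the atorvastatin libraries in 8 of the 10 genes, all but Mmp9 and Mmp12. The same held for 51.5% of all tested genes, and this library had the largest immunoglobulin share. The 3 plasma cell markers summed to 2326, 4203 and 1964 FPKM in the atorvastatin libraries and to between 1453 and 3457 FPKM with vehicle. The 3 B cell markers summed to between 175 and 198 FPKM with atorvastatin and between 230 and 306 FPKM with vehicle. Those B cell sums did not overlap, as in 14.4% of all genes tested, and were lowest in atorvastatin library 2. The part of plasma cells and B cells in the values given here was not tested. The libraries were then rescaled to equal sums without immunoglobulin and mitochondrial genes. The log2 differences became 0.53 for Mmp14, 0.38 for Mmp2, 0.53 for Mmp13, 0.52 for Mmp10 and 0.15 for Timp2. They were 0.15 for Mmp3, 0.04 for Timp3, 0.01 for Mmp12 and -0.08 for Timp1. The median over all genes tested also rose, from -0.02 to 0.04, and 0 genes of 13608 were called in limma.

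Other members of the family were mostly low. Of 18 further Mmp and inhibitor genes, 6 could be tested, 0 were called higher, 0 lower and 0 had an unadjusted p under 0.05 in limma, with a median log2 difference of 0.16. Mmp19, which encodes a secreted protease of vessel walls and myeloid cells, had 18.65, 17.12 and 18.34 FPKM in the atorvastatin libraries and 13.17, 13.95 and 17.11 FPKM in the vehicle libraries. The lowest atorvastatin value lay just above the highest vehicle value, and the difference on the log2 scale was 0.28 (SE 0.13, limma adjusted p = 0.696). Mmp11, stromelysin-3 of fibroblasts, had 4.40, 2.83 and 3.96 FPKM against 1.21, 3.67 and 1.89 FPKM (log2 difference 0.59, SE 0.28). The leukocyte protease Mmp25 had a log2 difference of -0.10, Mmp23 one of 0.21, Mmp17 one of 0.08 and Reck, a membrane-anchored inhibitor, one of 0.11.

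Genes for activation and clearance of the proteases were measured as a list of 16, of which 14 could be tested. None was called higher or lower, 2 had an unadjusted p under 0.05 (7.17% of all genes tested did), and the median log2 difference was 0.15. The most abundant was Thbs1, the gene of a matrix protein that binds Mmp2 and Mmp9, with a log2 difference of 0.25 (SE 0.19). The 2 below 0.05, named after their values were seen, were Lcn2 and Thbs2. Lcn2, whose human product forms a complex with the gelatinase of neutrophils, had 11.24, 9.41 and 10.13 FPKM in the atorvastatin libraries and 14.13, 12.98 and 23.66 FPKM in the vehicle libraries, without overlap (limma adjusted p = 0.692). Thbs2, whose product takes part in the uptake of Mmp2, had 13.26, 12.51 and 15.98 against 7.71, 12.47 and 9.32 FPKM (limma adjusted p = 0.692).

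Among 17 ADAM and ADAMTS proteases 14 could be tested, with 0 called higher, 0 called lower, 3 at an unadjusted p under 0.05, where 7.17% of all genes tested were, and a median log2 difference of 0.22. Adamdec1, a protease typical of intestinal stroma and macrophages, had 648.06, 421.65 and 623.57 FPKM in the atorvastatin libraries and 511.81, 375.97 and 763.51 FPKM in the vehicle libraries, far above the Mmp genes. Adamts4, an aggrecan-cutting protease, had 74.44, 49.97 and 79.08 FPKM in the atorvastatin libraries and 49.00, 32.28 and 36.33 FPKM in the vehicle libraries. Its groups did not overlap, as in 14.4% of all genes tested, and its log2 difference was 0.77 (SE 0.23, limma adjusted p = 0.692). Adam19 and Adamts10, named after their values were seen, were the other two below 0.05, with log2 differences of 0.39 and 0.35.

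All 17 matrix substrates could be tested, and 0 were called higher, 0 lower, 3 had an unadjusted p under 0.05, beside 7.17% of all genes tested, and the median log2 difference was 0.23. Dcn and Col3a1, the most abundant, had log2 differences of -0.03 (SE 0.16) and 0.11 (SE 0.24). The 3 below 0.05, named after their values were seen, were the basement membrane collagens Col4a1 (0.54, SE 0.18) and Col4a2 (0.52, SE 0.19), which Mmp2 and Mmp9 digest, and fibronectin, Fn1 (0.45, SE 0.18), all with a limma adjusted p of 0.692. Their groups did not overlap, as in 14.4% of all genes tested. Col4a1 had 183.63, 127.77 and 175.98 FPKM in the atorvastatin libraries and 106.58, 111.84 and 112.93 FPKM in the vehicle libraries.

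Cytokines and transcription factors that induce the proteases made up a list of 16, all tested, with 0 called higher, 0 called lower, 3 at an unadjusted p under 0.05, beside 7.17% of all genes tested, and a median log2 difference of 0.22. The AP-1 subunits Junb and Fos were the most abundant. Junb had 805.44, 589.02 and 783.32 FPKM in the atorvastatin libraries and 584.70, 544.82 and 635.86 FPKM in the vehicle libraries (log2 difference 0.29, SE 0.21), and Fos had 632.43, 535.77 and 809.11 against 431.90, 456.88 and 583.29 FPKM (0.42, SE 0.23). The groups overlapped in both genes. The 3 below 0.05, named after their values were seen, were Ets2 (0.50, SE 0.16) and Fosl2 (0.41, SE 0.14), transcription factors with positive differences, and the cytokine Il1b (-0.41, SE 0.16), each with a limma adjusted p of 0.692. Il1b had 121.68, 144.10 and 121.25 FPKM in the atorvastatin libraries and 187.01, 149.98 and 179.19 FPKM in the vehicle libraries.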

How the data were processed

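The deposited files hold FPKM per gene for each library, scaled by gene length and library by the authors. The submitters' processing notes name FastQC 0.11.2, Bowtie and build mm10. No source used here gives the quantifier, its annotation or how strand was treated, and the number of fragments is unknown. Gene symbols came from GENCODE mouse release 21, in which 9 of the 10 genes have the same start and end as in the files. Genes reaching 1 FPKM in 3 or more libraries entered a limma-trend fit (limma 3.58.1 in R 4.3.3) on log2(FPKM + 1), two-sided, with Benjamini-Hochberg adjustment over all genes. Mmp9, below that filter, was compared by an exact permutation test over 20 assignments. The genes and lists were chosen with earlier results of these data known, and further genes were named by a rule: the 2 most abundant of each list, the tested Mmp genes, genes overlapping a member, and the 2 nearest profiles of the 3 most abundant members. A gene that this rule names is not reported here. Promoter sequences came from RefSeq, GRCm38.p6, for 8 of the 10 genes. Alternatives were other pseudocounts, filters, scalings and variance models, a replicate block, and omission of each library in turn.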

Additional observations from a re-analysis of the deposited data

How the results depend on the processing

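No gene of the 8 to 10 tested in each of the 15 alternatives was called (Mmp9 only without a filter, Mmp12 in 14): pseudocounts of 0.1 and 0.5, no filter, a mean of at least 5 FPKM, 2 scalings, 2 variance models, the replicate block and leaving out each library. Over all genes the limma count was 0 except without atorvastatin replicate 1 (1 gene) or 3 (2 genes), so it ranged from 0 to 2 when a library was left out. The differences of Mmp2, Mmp10, Mmp13, Mmp14 and Timp2 were positive in every alternative. Signs turned in the small ones: with equal sums without immunoglobulin and mitochondrial genes Mmp12 was 0.010 and Timp3 0.044, and leaving out single libraries gave -0.16 to 0.38 for Mmp3, -0.14 to 0.14 for Mmp12, -0.33 to 0.041 for Timp1 and -0.14 to 0.10 for Timp3. The cause was not tested. The protease to inhibitor ratio was 1.24 times higher with atorvastatin, 1.14 to 1.34 times when a library was left out, and 1.22 times on the log2 means. With the replicate number as a block 0 genes were called, 852 had an unadjusted p under 0.05, and the lowest adjusted p was 0.0733. Same-numbered libraries deviated together with r of -0.11, 0.14 and -0.02, beside -0.16 to 0.19 between differently numbered ones. Correlation over all genes can miss a pairing that affects few genes, so whether the numbers pair the libraries is unknown. Depth is unknown, and values near 1 FPKM, as in Mmp9 and Mmp12, carry the least information.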
